A study of Mus musculus with 39 samples.

Results

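The response of lymph node dendritic cells (DC) 20 h after particles carrying ovalbumin (OVA) and CpG was measured against DC of non-immunized mice. By the sample titles, 5 libraries of each group belong to this comparison, which makes 10 of the 39 samples of the series. Both groups are DC from the popliteal and inguinal lymph nodes of C57BL/6 wild-type mice aged 8 to 12 weeks. The OVA group received nanoparticles holding OVA and CpG under the skin of the hock. By the protocols DC were enriched by removal of other cells, stained and sorted, and the staining markers are not given in the sources used here. The non-immunized group is given as treatment None. A group of 5 libraries from mice given BSA-CpG particles was sequenced beside them and shares the non-immunized controls. By the series description the mice had been given OVA-specific T cells of the OT-I and OT-II lines, but the labels of these samples do not say which mice carried them. Nor do they state if replicates are separate animals or pools, so p-values measure the spread between samples. Markers given with the comparison are Isg15, Irf7, Ccr7 and Lyz2.

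DC take up antigen in tissues, carry it to the lymph node through lymph under the guidance of the receptor Ccr7, and show it to T cells on MHC molecules. CpG DNA is read by Toll-like receptor 9, whose signal runs through Myd88 to interferon regulatory factors and NF-kB. Type I interferon then acts back on the cells through a complex that holds Stat2 and Irf9 and binds the interferon-stimulated response element (ISRE) to switch on antiviral genes, while interferon-gamma acts mostly on guanylate-binding and immunity-related GTPases and on antigen presentation.

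Total counts ran from 367209 (non-immunized replicate 3) to 2052904 (OVA replicate 3). A total of 24411 genes was measured, and 9159 passed the filter on low counts. Levels below are CPM, counts scaled to a common library total of 1000000 after TMM, which corrects totals for differences in composition. Changes are log2 fold changes of OVA over non-immunized ± SE from edgeR's quasi-likelihood test, with p-values adjusted over all 9159 genes by Benjamini-Hochberg, and a gene was called at an adjusted p under 0.05. On the first principal component of the 10 libraries, with 51.1% of the variance, each OVA library lay apart from each non-immunized library, and non-immunized replicate 3, the smallest library, stood apart from the rest on the second (18.7%). OVA replicate 3 differed from the other OVA libraries by a chi-square per degree of freedom of 11.0 to 15.1, against 3.26 to 6.49 between the others. Counts in exons made up 53.6% to 61.5% of the library totals given in the file headers in the non-immunized group and 64.6% to 76.3% in the OVA group, with no overlap, and the part of this difference in the results was not tested. Transcripts of the Y chromosome passed 20 CPM in non-immunized replicates 1 to 3 and OVA replicates 3 and 4. The DC markers Flt3, the receptor for the DC growth factor, and Zbtb46, a transcription factor of conventional DC, were found in every library, Flt3 at 349 to 444 CPM in non-immunized and 372 to 486 CPM in OVA libraries and Zbtb46 at 20.9 to 38.5 and 31.1 to 42.8 CPM.

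Isg15 and Irf7 were higher and the myeloid genes Lyz2, Ccr2 and Csf1r lower in every OVA library than in every control. Of the 9159 genes, 878 (9.59%) were higher and 553 (6.04%) were lower, and the median log2 change of all genes was -0.01. Counts of called list members given below stand beside these shares. Libraries of the groups did not overlap in 626 genes that were higher and 387 that were lower after OVA, called or not. Among the called genes 242 rose and 220 fell by more than 1 on the log2 scale. Without replicate 3 of both groups 1191 genes were called, and with the counts of every library thinned to the smallest total, 311 were. In the authors' deposited table, 948 genes were higher and 589 lower at an adjusted p under 0.05, and 1332 of these 1537 were also called here.

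**Figure D1:**
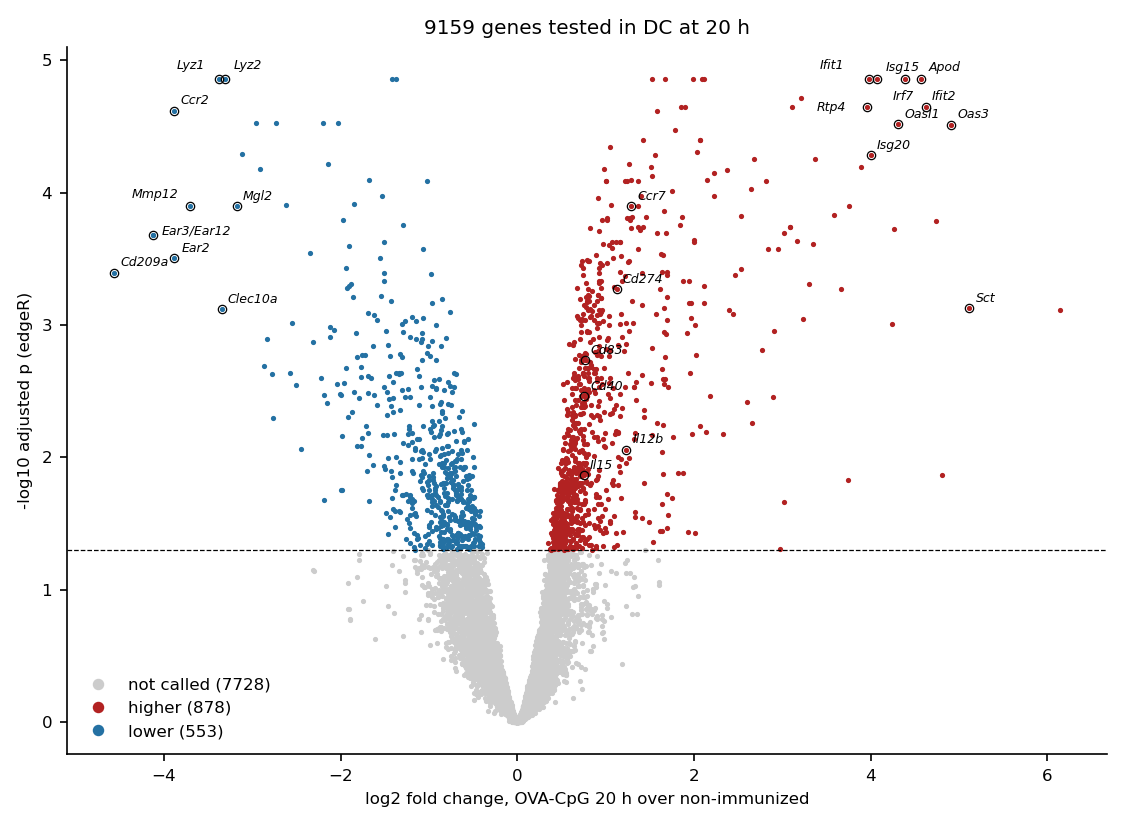
Each point is 1 of the 9159 genes tested, with the log2 fold change of OVA over non-immunized DC at 20 h on the x axis and the negative log10 of the adjusted p on the y axis. Red points are the 878 genes called higher and blue points the 553 called lower, the dashed line is the threshold of 0.05, and circles mark genes named in the text.

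Isg15, a ubiquitin-like modifier that is attached to proteins after interferon, stood at 61.5, 105, 102, 31.8 and 84.4 CPM in non-immunized replicates 1 to 5. In OVA replicates 1 to 5 it stood at 1109, 1493, 1580.3, 1298 and 832 CPM. The lowest OVA library, replicate 5, was above the highest control, and the log2 change was 4.08 ± 0.46 (adjusted p = 1.4e-05). Irf7, the factor that amplifies type I interferon production, stood at 18.8, 24.8, 66.0, 16.7 and 33.3 CPM in the controls and at 789, 839, 520.0, 511 and 283 CPM after OVA. Its log2 change was 4.39 ± 0.50 (adjusted p = 1.4e-05), with non-immunized replicate 3 the highest control and OVA replicate 5 the lowest of its group.

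The 10 largest rises among called genes with at least 10 CPM and no overlap of libraries were, besides Isg15 and Irf7, those of Sct, Oas3, Ifit2, Apod, Oasl1, Isg20, Ifit1 and Rtp4. Sct encodes secretin, a peptide hormone. It stood at 2.08, 0.709, 2.75, 0.557 and 1.85 CPM in the controls and at 65.5, 91.2, 28.5, 46.4 and 20.4 CPM after OVA, a log2 change of 5.12 ± 0.93 (adjusted p = 0.00074). Oas3, which makes the 2'-5' oligoadenylates that activate RNase L, stood at 7.29, 2.84, 11.0, 2.23 and 6.78 CPM and at 147, 239, 184, 139 and 61.1 CPM, a log2 change of 4.91 ± 0.62 (adjusted p = 3.1e-05). Apod, a lipid carrier of the lipocalin family, rose from 1.78 ± 2.14 to 29.9 ± 5.82 CPM (SD, n = 5 each), a log2 change of 4.57 ± 0.49 (adjusted p = 1.4e-05). With 8 and 7 counts over the controls, Sct and Apod passed the filter through the particle groups alone, so only a rise could be called. Oas3, Ifit2 and Isg20, with 30, 31 and 26 counts over the controls, passed it largely through the particle groups.

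Ifit1 and Ifit2 encode proteins that bind viral RNA. Ifit2 stood at 5.21, 4.96, 8.25, 1.11 and 8.63 CPM in the controls and 141, 189, 127, 153 and 36.5 CPM after OVA, a log2 change of 4.62 ± 0.56 (adjusted p = 2.2e-05). Ifit1 rose from 14.4 ± 5.41 to 209 ± 76.5 CPM (log2 3.98 ± 0.40, adjusted p = 1.4e-05). Oasl1, a relative of the oligoadenylate synthetases, rose from 10.3 ± 5.26 to 178 ± 61.1 CPM (log2 4.31 ± 0.55, adjusted p = 3e-05). The exonuclease gene Isg20 rose by a log2 of 4.00 ± 0.53 (adjusted p = 5.2e-05) and Rtp4, a chaperone for receptors with interferon-regulated expression, by 3.95 ± 0.48 (adjusted p = 2.2e-05). In each of the genes from Sct to Rtp4 except Apod, replicate 5 was the lowest OVA library, in Apod it was replicate 3, and it was above every control library.

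**Figure D2:**
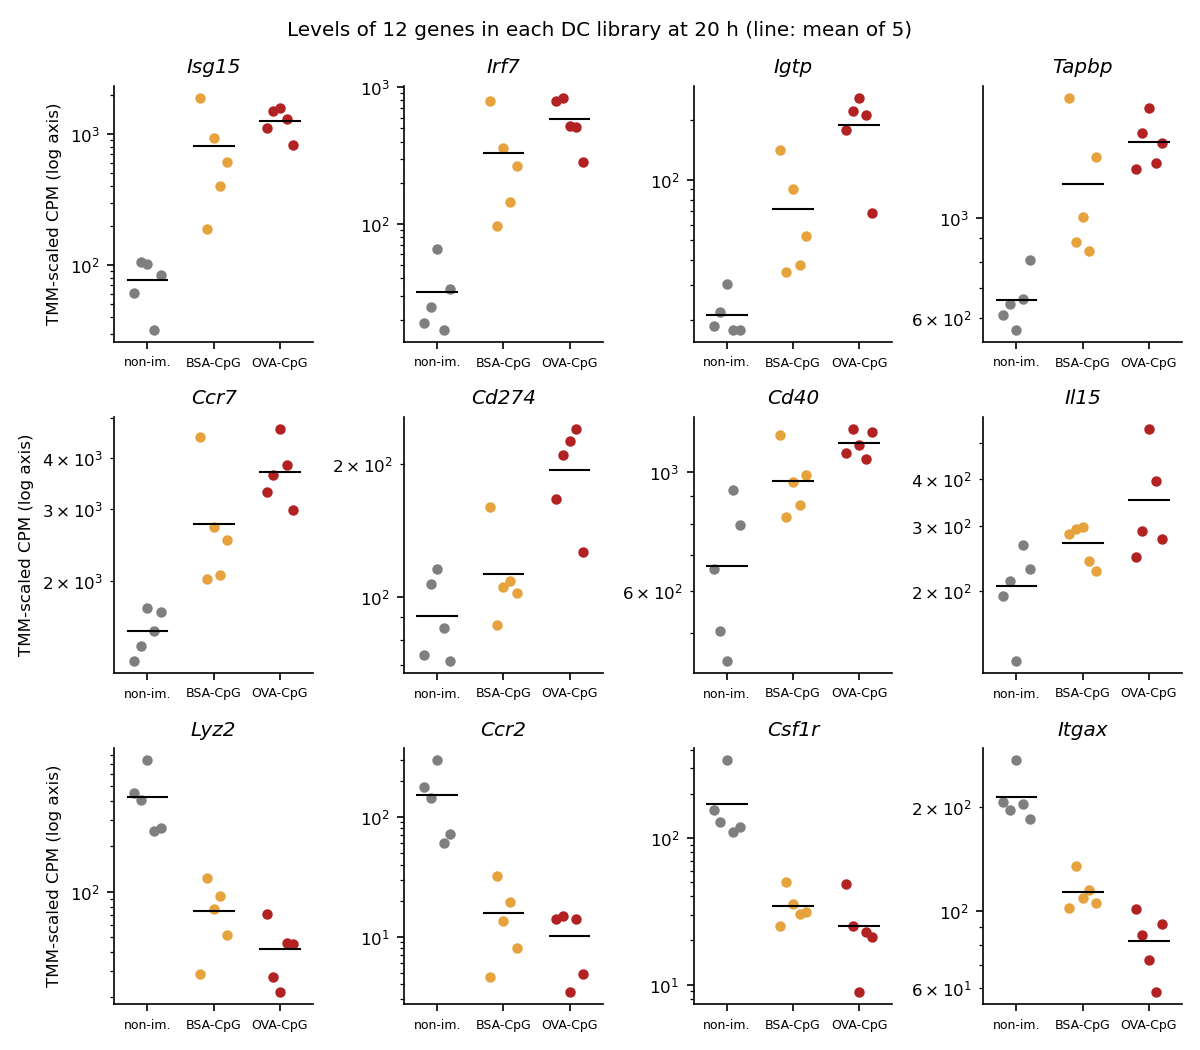
Levels of 12 genes in TMM-scaled CPM (log axes) in each library of the non-immunized, BSA-CpG and OVA-CpG groups at 20 h, with points from left to right for replicates 1 to 5 and a line at the mean of 5. Isg15, Irf7, Igtp, Tapbp, Ccr7, Cd274 and Cd40 are higher in each OVA library than in each control, Il15 overlaps, and Lyz2, Ccr2, Csf1r and Itgax are lower in each OVA library.

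Promoter sequences of interferon-responsive members are shown because many of the largest rises hold a short element, the ISRE, near the start. The 250 bases before the start held it in 31 of 77 promoters (40.3%) of the 100 called genes with the largest rises. Sequences and coordinates are from RefSeq on build GRCm38.p6 and cover the 250 bases before the start of transcription, written 5′ to 3′ on the strand of the gene. Capitals mark matches to the core of the ISRE, which is GAAA, 2 bases of any kind and GAAA, on either strand. Matches may overlap.
Isg15 (chr4:156200819-156201068, minus strand): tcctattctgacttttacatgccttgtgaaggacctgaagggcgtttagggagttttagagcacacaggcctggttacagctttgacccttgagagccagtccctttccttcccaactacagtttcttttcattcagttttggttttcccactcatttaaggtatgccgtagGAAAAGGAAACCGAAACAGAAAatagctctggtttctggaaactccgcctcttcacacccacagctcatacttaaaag
Ifit1 (chr19:34640639-34640888, plus strand): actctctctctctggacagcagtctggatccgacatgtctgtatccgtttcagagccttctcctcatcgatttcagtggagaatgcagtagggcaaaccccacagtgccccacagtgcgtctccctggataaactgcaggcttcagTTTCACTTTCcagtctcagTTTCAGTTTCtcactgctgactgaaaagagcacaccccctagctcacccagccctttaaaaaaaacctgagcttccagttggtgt
Socs1 (chr16:10785537-10785786, minus strand): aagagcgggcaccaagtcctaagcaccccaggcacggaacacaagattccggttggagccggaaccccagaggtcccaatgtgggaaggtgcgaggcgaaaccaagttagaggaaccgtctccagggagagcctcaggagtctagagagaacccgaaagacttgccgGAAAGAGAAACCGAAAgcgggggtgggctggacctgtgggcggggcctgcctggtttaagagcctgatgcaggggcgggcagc
Irgm1 (chr11:48871421-48871670, minus strand): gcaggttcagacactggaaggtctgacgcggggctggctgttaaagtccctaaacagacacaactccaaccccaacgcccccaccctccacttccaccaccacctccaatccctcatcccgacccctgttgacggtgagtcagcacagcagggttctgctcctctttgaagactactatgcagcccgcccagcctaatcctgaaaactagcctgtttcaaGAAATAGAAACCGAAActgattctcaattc
Cxcl10 (chr5:92348890-92349139, minus strand): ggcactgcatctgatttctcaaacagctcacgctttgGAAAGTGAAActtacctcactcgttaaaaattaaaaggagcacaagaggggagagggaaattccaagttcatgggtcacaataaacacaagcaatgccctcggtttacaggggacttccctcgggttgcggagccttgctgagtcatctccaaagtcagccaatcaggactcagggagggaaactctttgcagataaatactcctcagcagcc
Isg15 holds 3 overlapping matches, of which the nearest begins 66 bases before the start. Ifit1, the interferon feedback inhibitor Socs1 and the GTPase gene Irgm1 hold 2 matches each, and the chemokine gene Cxcl10 holds 1, which begins 213 bases before the start. Other genes that rose held no match in the 250 bases before any start given for them, among them Irf7, Ifit2, Oasl1, Isg20, Irf9, Ifih1 and Ddx58. The files use mm9, so the coordinates apply to the RefSeq build only.

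Counted over windows from 250 bases before to 50 after the start, 7148 of the 9159 genes had a promoter in the table. It was found in 78 of 686 promoters (11.4%) of genes called higher, in 20 of 409 (4.89%) of genes called lower and in 291 of 7148 (4.07%) of all genes tested. Among called members of the lists described below it was found in 14 of 31 promoters (45.2%) of type I interferon-stimulated effectors and in 10 of 10 of interferon-gamma-inducible GTPases. It was found in 1 of 9 promoters of genes of DC maturation and migration. The gamma-activated site was searched as TTC, 3 bases of any kind and GAA. It stood in 67 of 686 (9.77%) of genes called higher and 583 of 7148 (8.16%) of all, and 43 of these 7148 held both elements. Among called list members it stood in 7 of 10 GTPases, 7 of 31 (22.6%) type I effectors and 0 of 9 maturation genes. Of the 100 largest rises 17 of 77 (22.1%) held it, where 33 (42.9%) held the ISRE. An NF-kB site, searched as GGGA, any base and TTTCC, stood in 5 of 686 (0.729%) and 40 of 7148 (0.56%). A match is a string of letters and does not show binding.

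Type I interferon-stimulated effectors, the proteins that block viral entry, translation and replication, were measured in 46 cases, of which 45 passed the filter. Of these 41 rose and 0 fell, with a median log2 change of 1.97, and 30 had no overlap between the groups, beside 626 of all 9159 genes that were higher without overlap. Their summed level was 2604 to 3947 CPM in the controls and 6467 to 11719 CPM after OVA. Parp12, an ADP-ribosyltransferase, rose from 36.0 ± 5.66 to 138 ± 41.3 CPM (log2 1.90 ± 0.23, adjusted p = 2.2e-05). Bst2, the tetherin that holds budding virus at the membrane, stood at 196, 156, 168, 162 and 118 CPM in the controls and 513, 504, 781, 609 and 461 CPM after OVA (log2 1.85 ± 0.23, adjusted p = 2.2e-05). Of the 4 tested members that were not called, Ly6e had a log2 change of 0.09 ± 0.30 and Trim21 of 0.32 ± 0.17.

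Sensors of foreign nucleic acid rose in 6 of 16 tested members and fell in 0. They were 4 cytoplasmic sensors, the ligase Trim25 and the adaptor Ticam1. Zbp1, which recognizes left-handed nucleic acid, rose by a log2 of 3.11 ± 0.38 (adjusted p = 2.2e-05), and Dhx58, a helicase related to the RNA sensors, by 2.53 ± 0.38 (adjusted p = 0.00015). The RNA helicases Ifih1 (Mda5) and Ddx58 (Rig-I) rose by 1.67 ± 0.25 and 1.70 ± 0.29 (adjusted p = 0.00014 and 0.00042). Tlr9, the receptor for CpG, was counted 1.04, 0.709, 0, 2.79 and 0.616 CPM in the controls and 1.64, 2.28, 0.492, 1.47 and 1.41 CPM after OVA. With 8 counts over the controls and 9 over the OVA libraries it did not pass the filter, and a difference was not detectable at this depth. The adaptor Myd88 had a log2 change of 0.35 ± 0.27 (adjusted p = 0.41).

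Transcripts of the interferons Ifnb1, Ifna2 and Ifna4 had 0 counts in the 10 libraries, which allows levels of up to 0.522 CPM in the controls and 0.415 CPM after OVA (3 counts of each group's total). Ifngr1 of the interferon-gamma receptor stood at 78.1, 68.8, 107, 60.2 and 53.0 CPM in the controls and 26.2, 34.2, 31.5, 22.1 and 29.5 CPM after OVA, a log2 change of -1.29 ± 0.20 (adjusted p = 0.00018), with no overlap. Ifnar1 of the type I receptor fell from 66.4 ± 11.0 to 37.2 ± 4.34 CPM (log2 -0.81 ± 0.16, adjusted p = 0.00126), also with no overlap. Ifnar2 and Ifngr2, their partner chains, had log2 changes of 0.15 ± 0.15 and -0.12 ± 0.14 and were not called. Ifng, the cytokine of T and NK cells, stood at 0, 0.709, 0, 1.11 and 4.31 CPM in the controls and 38.5, 1.14, 18.2, 177 and 0.703 CPM after OVA. With 10 counts over the controls Ifng passed the filter through the particle groups, so only a rise could be called. Its groups overlap and the highest value is that of OVA replicate 4. The log2 change of 4.81 ± 1.28 (adjusted p = 0.0137) was no longer called without that library (log2 3.15, adjusted p = 0.0776).

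Among interferon regulatory factors and STATs 8 of 15 rose and 0 fell. Stat2, of the complex that binds the ISRE, stood at 86.5, 68.1, 113, 65.7 and 86.3 CPM in the controls and 238, 350.0, 293, 245 and 133 CPM after OVA, a log2 change of 1.62 ± 0.26 (adjusted p = 0.00029) with no overlap. Irf9, its partner, rose by 1.53 ± 0.21 (adjusted p = 7.5e-05), also with no overlap. Irf3, the factor that acts before interferon is made, had a log2 change of 0.00 ± 0.14 (adjusted p = 1.00). Inhibitors of interferon signalling rose in 3 of 9 cases and fell in 0. Usp18, which removes Isg15 from proteins and blocks the receptor, rose from 94.8 ± 16.2 to 284 ± 68.5 CPM (log2 1.56 ± 0.21, adjusted p = 5.2e-05). Socs1, an inhibitor of JAK kinases, rose from 65.5 ± 16.0 to 167 ± 51.9 CPM (log2 1.41 ± 0.25, adjusted p = 0.0007), and Trim30a rose by 1.67 ± 0.35 (adjusted p = 0.00254) with overlapping groups.

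Interferon-gamma-inducible GTPases, which attack the vacuoles of intracellular pathogens, rose in 12 of 14 tested members, of 18 measured, and fell in 0. Their median log2 change was 2.23. Igtp stood at 18.8, 21.98, 30.3, 17.8 and 17.9 CPM in the controls and 179, 222, 258, 211 and 68.2 CPM after OVA, a log2 change of 3.21 ± 0.38 (adjusted p = 1.9e-05). Gbp2 stood at 156, 197, 116, 154 and 152 CPM and 524, 798, 854, 843 and 329.7 CPM, a log2 change of 2.09 ± 0.24 (adjusted p = 1.4e-05). In both genes OVA replicate 5 was the lowest of its group and still above each control. Irgm1 and Gbp3 rose by 2.37 ± 0.33 and 1.75 ± 0.25 (adjusted p = 6.7e-05 and 9.6e-05). The summed level of the list was 1046 to 1249 CPM in the controls and 1589 to 3933 CPM after OVA, where replicate 5 had the lowest sum.

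Genes of the MHC class I pathway rose in 13 of 22 cases and fell in 0, by smaller steps than the antiviral genes (median log2 change 0.55). Tapbp, the tapasin that loads peptide onto class I molecules, stood at 608, 645, 564, 661 and 805 CPM in the controls. After OVA it stood at 1281, 1539, 1753, 1323 and 1461 CPM, a log2 change of 1.16 ± 0.18 (adjusted p = 0.00023) with no overlap. The peptide transporter gene Tap1, the immunoproteasome subunit gene Psmb8 and the heavy chain gene H2-D1 rose by 0.96 ± 0.16, 0.74 ± 0.12 and 0.73 ± 0.12 (adjusted p = 0.00035, 0.00037 and 0.00033). Heavy chain genes resemble each other, and how reads shared between them were counted is not given in the sources used here. B2m, the light chain, had a log2 change of 0.11 ± 0.17 (adjusted p = 0.72).

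In the MHC class II pathway 2 of 15 tested members were called higher and 3 lower, where 9.59% and 6.04% of all genes were. The log2 change was negative in 12 of the 15 and positive in 3, with a median of -0.21. The processing enzymes Lgmn, a lysosomal protease, and Ifi30, a lysosomal thiol reductase, rose by 0.81 ± 0.14 and 0.52 ± 0.14 (adjusted p = 0.0006 and 0.0124). H2-DMb1, a chain of the peptide editor of class II, fell from 292 ± 145 to 123 ± 32.8 CPM (log2 -1.22 ± 0.23, adjusted p = 0.00123). March1, the ligase that removes class II from the surface, fell with overlapping groups (log2 -1.24 ± 0.36, adjusted p = 0.0213). Without replicate 3 of both groups March1 was not called and 1 class II gene was lower. The class II chains H2-Aa and H2-Ab1 and the invariant chain Cd74 had log2 changes of -0.09 ± 0.19, -0.25 ± 0.27 and -0.21 ± 0.15 and were not called.

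Of 25 tested genes of the DC maturation programme, 12 were called higher and 0 lower, with a median log2 change of 0.48. Ccr7, the receptor that leads DC into and through the lymph node, stood at 1273, 1385, 1714, 1513 and 1676 CPM in the controls. OVA replicates 1 to 5 had 3295, 3625, 4709, 3847 and 2987 CPM, a log2 change of 1.29 ± 0.19 (adjusted p = 0.00013), and the groups did not overlap. Fscn1, which bundles actin in the dendrites of mature DC, rose from 3218 ± 624 to 7229 ± 1924 CPM (log2 1.17 ± 0.20, adjusted p = 0.0004). Cd200, a ligand that restrains myeloid cells, stood at 12.5, 35.5, 27.5, 24.5 and 16.6 CPM in the controls and 102, 94.6, 82.7, 87.0 and 110.4 CPM after OVA (log2 2.03 ± 0.27, adjusted p = 4.9e-05). The motor protein gene Myo1g rose by 0.73 ± 0.14 and Il4i1, a secreted amino acid oxidase, by 0.74 ± 0.15 (adjusted p = 0.00092 and 0.00232). In the controls each of these genes was already detected in every library.

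Of the ligands for T cell costimulation 2 of 9 tested members were higher and 1 was lower, where 9.59% and 6.04% of all genes were. Cd40, the receptor through which helper T cells license DC, stood at 658, 505, 443, 925 and 796 CPM in the controls and 1083, 1203, 1119.8, 1057 and 1183 CPM after OVA. The log2 change was 0.75 ± 0.17 (adjusted p = 0.00345), with no overlap. Cd83, a marker of mature DC, rose from 397 ± 53.3 to 673 ± 115 CPM (log2 0.76 ± 0.15, adjusted p = 0.00183). The ligands of Cd28 were not called. Cd86 stood at 109, 98.6, 113, 94.7 and 59.2 CPM in the controls and 138, 171, 79.2, 128 and 107 CPM after OVA, a log2 change of 0.41 ± 0.20 (adjusted p = 0.17) with overlapping groups. Cd80 stood at 16.8 ± 8.43 and 26.6 ± 9.36 CPM, a log2 change of 0.79 ± 0.32 (adjusted p = 0.1). Cd48, the ligand of 2B4, fell (log2 -0.999 ± 0.33, adjusted p = 0.0428), with the lowest value in OVA replicate 3 at 8.36 CPM. That call was lost in 9 of 19 alternatives, among them those without 1 of the controls numbered 1 to 4 or OVA replicate 2 or 4.

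Coinhibitory ligands rose in 4 of 7 tested members and fell in 1, beside 9.59% and 6.04% of all genes, with a median log2 change of 1.12. Cd274, the ligand of PD-1, stood at 74.0, 107, 116, 85.2 and 71.5 CPM in the controls and 167, 209.7, 226, 241 and 126 CPM after OVA. The groups did not overlap and the log2 change was 1.12 ± 0.20 (adjusted p = 0.00054). Lgals9, a galectin that binds Tim-3, rose by 1.94 ± 0.35 (adjusted p = 0.00068). Cd200, described above, is also of this list. Havcr2, which encodes Tim-3 itself, fell from 34.4 ± 10.6 to 13.6 ± 3.28 CPM (log2 -1.27 ± 0.28, adjusted p = 0.00349).

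Of the NF-kB subunits and their regulators 7 of 19 rose and 0 fell, with a median of 0.31. Those with the smallest p-values were Nfkbib (log2 0.93 ± 0.16), an inhibitor of the classical dimer, and Map3k14 (log2 0.94 ± 0.17) and Nfkb2 (log2 0.76 ± 0.14), the kinase and the precursor of the alternative pathway that Cd40 engages (adjusted p = 0.00047, 0.00083 and 0.00091). Traf1, an adaptor of that receptor family, rose by 0.69 ± 0.14 (adjusted p = 0.00211). Nfkbia and Tnfaip3, the early feedback inhibitors, had log2 changes of -0.29 ± 0.16 and -0.14 ± 0.14 and were not called.

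**Figure D3:**
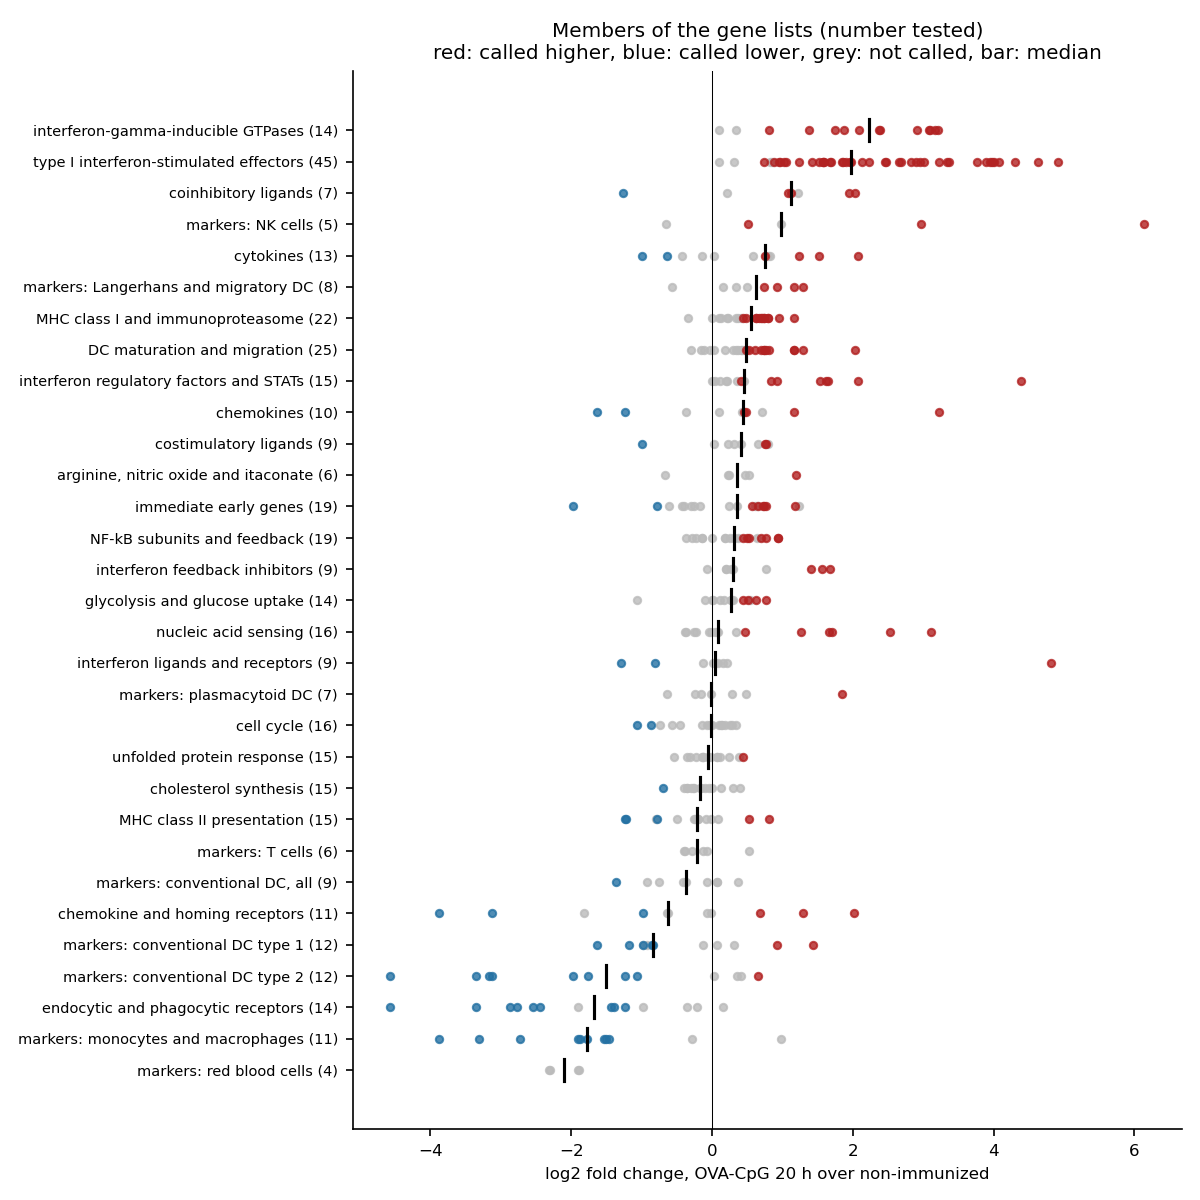
Log2 fold change of OVA over non-immunized DC at 20 h (x axis) for each tested member of the gene lists with at least 4 tested members, ordered by their median (black bar), with the number tested in brackets. Interferon-gamma-inducible GTPases (median 2.23) and type I effectors (1.97) stand at the top, and monocyte and macrophage markers (-1.77) and red blood cell genes (-2.11, none called) at the bottom.

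Cytokine genes rose in 4 of 13 tested members and fell in 2, where 9.59% and 6.04% of all genes did. Il12b, the p40 chain of interleukins 12 and 23, stood at 76.0, 48.2, 126, 70.2 and 91.8 CPM in the controls and 146, 159.6, 226, 318 and 82.2 CPM after OVA, a log2 change of 1.24 ± 0.31 (adjusted p = 0.00876) with overlap in OVA replicate 5. Il15, a growth factor of memory CD8 T and NK cells, stood at 194, 213, 129, 265 and 229 CPM and 247, 289.5, 548, 396 and 276 CPM, a log2 change of 0.75 ± 0.20 (adjusted p = 0.0137). Its call was lost when OVA replicate 3, the highest, was left out. The growth factor gene Tgfb1 and Il18 had log2 changes of -0.999 ± 0.31 and -0.64 ± 0.18 (adjusted p = 0.0322 and 0.0169), with overlapping groups. Only 1 of the cytokine genes was lower when non-immunized replicate 1 or 3 or OVA replicate 3, 4 or 5 was left out. Il18bp, the soluble inhibitor of interleukin 18, rose from 25.1 ± 4.47 to 71.4 ± 19.0 CPM (log2 1.52 ± 0.21, adjusted p = 6.4e-05), and Il6 from 2.94 ± 1.64 to 11.9 ± 5.83 CPM (log2 2.07 ± 0.49, adjusted p = 0.0058).

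Chemokine genes rose in 4 of 10 tested members and fell in 2, where 9.59% and 6.04% of all genes did. None was without overlap, beside 626 higher and 387 lower of all 9159 genes. Cxcl10, a ligand of Cxcr3 on effector T cells, stood at 20.8, 17.0, 154, 15.6 and 32.0 CPM in the controls and 537, 519, 233, 335 and 99.8 CPM after OVA. Non-immunized replicate 3 lay above OVA replicate 5, and the log2 change was 3.23 ± 0.60 (adjusted p = 0.0009). Cxcl9, a ligand of the same receptor, rose by 1.17 ± 0.33 (adjusted p = 0.0204), and Cxcl16 by 0.48 ± 0.13 (adjusted p = 0.0158). The count of higher genes became 1 without non-immunized replicate 1 and 2 without non-immunized replicate 2 or 3, OVA replicate 1 or 5, or replicate 3 of both groups, and 1 gene was lower without non-immunized replicate 4 or OVA replicate 1 or 2. Cxcl9 and Cxcl16 each lost the call in 5 of 19 alternatives. Ccl17, a ligand of Ccr4, fell by 1.23 on the log2 scale (adjusted p = 0.0315), and Ccl9, made by myeloid cells, fell from 142 ± 69.1 to 43.4 ± 21.98 CPM (log2 -1.64 ± 0.32, adjusted p = 0.00143).

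Of 11 homing receptors tested 3 were called higher and 3 lower, beside 9.59% and 6.04% of all genes. Only 1 was higher without non-immunized replicate 1 or 5 or OVA replicate 1, and 5 were lower without OVA replicate 1 or with DESeq2. Besides Ccr7, Gpr183, an oxysterol receptor that positions DC in lymphoid organs, rose by 0.68 ± 0.20 (adjusted p = 0.0242) with overlapping groups, a call lost in 8 of 19 alternatives. Ccr2, the receptor by which monocytes leave the bone marrow, stood at 177, 145, 299.8, 60.7 and 71.5 CPM in the controls. After OVA it stood at 13.9, 14.8, 3.44, 14.0 and 4.92 CPM, a log2 change of -3.88 ± 0.48 (adjusted p = 2.4e-05). Cx3cr1, the fractalkine receptor, fell from 43.5 ± 23.4 to 4.81 ± 2.22 CPM (log2 -3.12 ± 0.41, adjusted p = 5.1e-05). Neither gene overlapped between the groups, and non-immunized replicate 3 was the highest for Ccr2.

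Lyz2, the lysozyme of macrophages and other myeloid cells, stood at 451, 404, 751, 251 and 266 CPM in the controls. In OVA replicates 1 to 5 it stood at 71.3, 27.4, 21.6, 45.7 and 45.0 CPM, a log2 change of -3.31 ± 0.36 (adjusted p = 1.4e-05). Each OVA library was below each control. The libraries are bulk RNA of sorted cells, so fewer cells of a type and less RNA per cell cannot be told apart here or in the falls that follow. Lyz1, a near copy of Lyz2 whose reads could be shared with it, fell too (log2 -3.38 ± 0.38, adjusted p = 1.4e-05).

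The other large falls among called genes without overlap were those of Cd209a, Ear12, Ear3, Ear2, Ccr2, Mmp12, Clec10a and Mgl2. Cd209a, Mmp12 and Clec10a had 26, 14 and 16 counts over the OVA libraries and passed the filter through the controls. The same holds for the Ear genes, so only a fall could be called in these. Cd209a, a relative of the lectin DC-SIGN, stood at 67.7, 101, 327, 30.6 and 19.7 CPM in the controls and 13.9, 3.42, 0, 2.95 and 1.41 CPM after OVA, a log2 change of -4.57 ± 0.77 (adjusted p = 0.0004). The control values spread widely, with replicate 3 the highest, and over the alternative analyses the log2 change ranged from -5.80 to -3.30. Clec10a and Mgl2, lectins for galactose-type sugars, fell from 31.4 ± 36.8 to 2.27 ± 0.926 CPM (log2 -3.35 ± 0.61, adjusted p = 0.00076) and from 72.6 ± 59.7 to 7.13 ± 3.87 CPM (log2 -3.17 ± 0.47, adjusted p = 0.00013). Ear2, a ribonuclease of eosinophils and macrophages, fell from 58.4 ± 39.7 to 3.55 ± 2.45 CPM (log2 -3.89 ± 0.64, adjusted p = 0.00031). Its relatives Ear12 and Ear3 have identical counts in every library and cannot be told apart (log2 -4.12 ± 0.65, adjusted p = 0.00021). Mmp12, the macrophage elastase, fell from 30.8 ± 15.2 to 2.30 ± 1.70 CPM (log2 -3.71 ± 0.55, adjusted p = 0.00013).

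Endocytic and phagocytic receptors fell in 9 of 14 tested members, of 22 measured, and rose in 0, with a median log2 change of -1.68. Clec7a, the receptor for fungal beta-glucan, fell from 59.9 ± 49.8 to 9.15 ± 5.82 CPM (log2 -2.55 ± 0.48, adjusted p = 0.00096). Clec4a2, an inhibitory lectin, fell too (log2 -2.87 ± 0.59, adjusted p = 0.00202). Ly75 (DEC-205), which takes up antigen in mature and type 1 DC, had a log2 change of 0.16 ± 0.34 (adjusted p = 0.79). The summed level of the list was 535 to 1868 CPM in the controls and 389 to 566 CPM after OVA, and these ranges overlap. Without replicate 3 of both groups 7 members were lower.

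Markers of monocytes and macrophages fell in 9 of 11 tested members and rose in 0. Csf1r, the receptor for the macrophage growth factor, stood at 156, 129.8, 344, 111 and 119 CPM in the controls and 48.3, 25.1, 8.86, 22.8 and 21.1 CPM after OVA, a log2 change of -2.73 ± 0.34 (adjusted p = 3e-05). Adgre1, the F4/80 antigen, fell from 41.2 ± 13.0 to 13.9 ± 5.63 CPM (log2 -1.51 ± 0.26, adjusted p = 0.00047), and the complement gene C1qa from 74.9 ± 46.9 to 18.6 ± 6.30 CPM (log2 -1.88 ± 0.32, adjusted p = 0.00049). The list summed to 1021 to 2976 CPM in the controls and 392 to 695 CPM after OVA, with no overlap. This sum is not separate from the falls above, since the list includes Lyz2, which averaged 425 CPM in the controls and 42.2 CPM after OVA. The part of these cells in the falls of Lyz2, Ccr2 and the lectins was not tested. Mpeg1, a pore-forming protein of macrophages, and Ly6c2, a surface protein of monocytes, had log2 changes of -0.29 ± 0.22 and 0.98 ± 0.48 and were not called.

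Markers of type 2 conventional DC fell in 8 of 12 tested members and rose in 1, with a median of -1.50, and the groups did not overlap in 6 of those that fell, beside 387 of all 9159 genes. Several are shared with monocytes or stand in the lists above. Sirpa, the receptor for Cd47, stood at 134, 147, 135, 138 and 143 CPM in the controls and 72.9, 71.8, 45.8, 45.7 and 97.7 CPM after OVA, a log2 change of -1.07 ± 0.17 (adjusted p = 0.00027). Irf4, the factor on which this subset depends, had a log2 change of 0.35 ± 0.14 (adjusted p = 0.0842). The list summed to 651 to 1394 CPM and 399.5 to 895 CPM, ranges that overlap in OVA replicate 1.

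Markers of type 1 conventional DC fell in 5 of 12 tested members and rose in 2, where 6.04% and 9.59% of all genes did. Irf8, the factor on which this subset depends and itself a responder to interferon-gamma, stood at 459, 439.7, 663, 489 and 668 CPM in the controls and 963, 1190.1, 1100.1, 1159.9 and 705 CPM after OVA, a log2 change of 0.92 ± 0.18 (adjusted p = 0.00159). Cd8a, present on resident type 1 DC and on CD8 T cells, rose by 1.43 ± 0.33 (adjusted p = 0.00494) with overlapping groups. Ppt1, a lysosomal thioesterase, and Gcsam, an adaptor, had log2 changes of -0.85 ± 0.21 and -1.64 ± 0.42 (adjusted p = 0.00844 and 0.0114). The chemokine receptor Xcr1 fell from 44.9 ± 9.71 to 22.6 ± 12.5 CPM (log2 -0.98 ± 0.30, adjusted p = 0.0307). Without replicate 3 of both groups 3 members were lower, and without OVA replicate 1, 8 were. The list summed to 3634 to 4195 CPM in the controls and 4001 to 4867 CPM after OVA, with overlap.

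Among markers of all conventional DC 1 of 9 fell and 0 rose, where 6.04% and 9.59% of all genes did. The gene that fell was Itgax, the integrin chain CD11c, at 207, 197, 275, 204 and 185 CPM in the controls and 102, 85.5, 72.3, 58.2 and 92.1 CPM after OVA (log2 -1.37 ± 0.16, adjusted p = 1.4e-05), and without OVA replicate 1 there were 2. Flt3 and Zbtb46 had log2 changes of 0.06 ± 0.12 and 0.37 ± 0.18 and were not called. Of the 9 markers 6 had a negative log2 change and 3 a positive one, with a median of -0.37. Markers of Langerhans cells and migratory DC rose in 4 of 8 cases and summed to 5809.9 to 7899.9 CPM and 12186 to 17658 CPM, with no overlap. Those that rose were Ccr7, Fscn1, Il4i1 and the surface glycoprotein Cd24a (log2 0.93 ± 0.18, adjusted p = 0.00145), while Cd207 and Epcam, which define Langerhans cells, had log2 changes of 0.49 ± 0.39 and 0.33 ± 0.32 and were not called. Ccr7 and Fscn1, described above, make up much of the sum. They averaged 1512 and 3218 CPM in the controls and 3692.5 and 7229 CPM after OVA. Of the plasmacytoid DC markers, 1 of 7 was called higher, the interferon-stimulated gene Bst2, beside 9.59% of all genes. Siglech, the defining surface lectin, had 43 counts over the controls and 9 over the OVA libraries and was not tested.

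**Figure D4:**
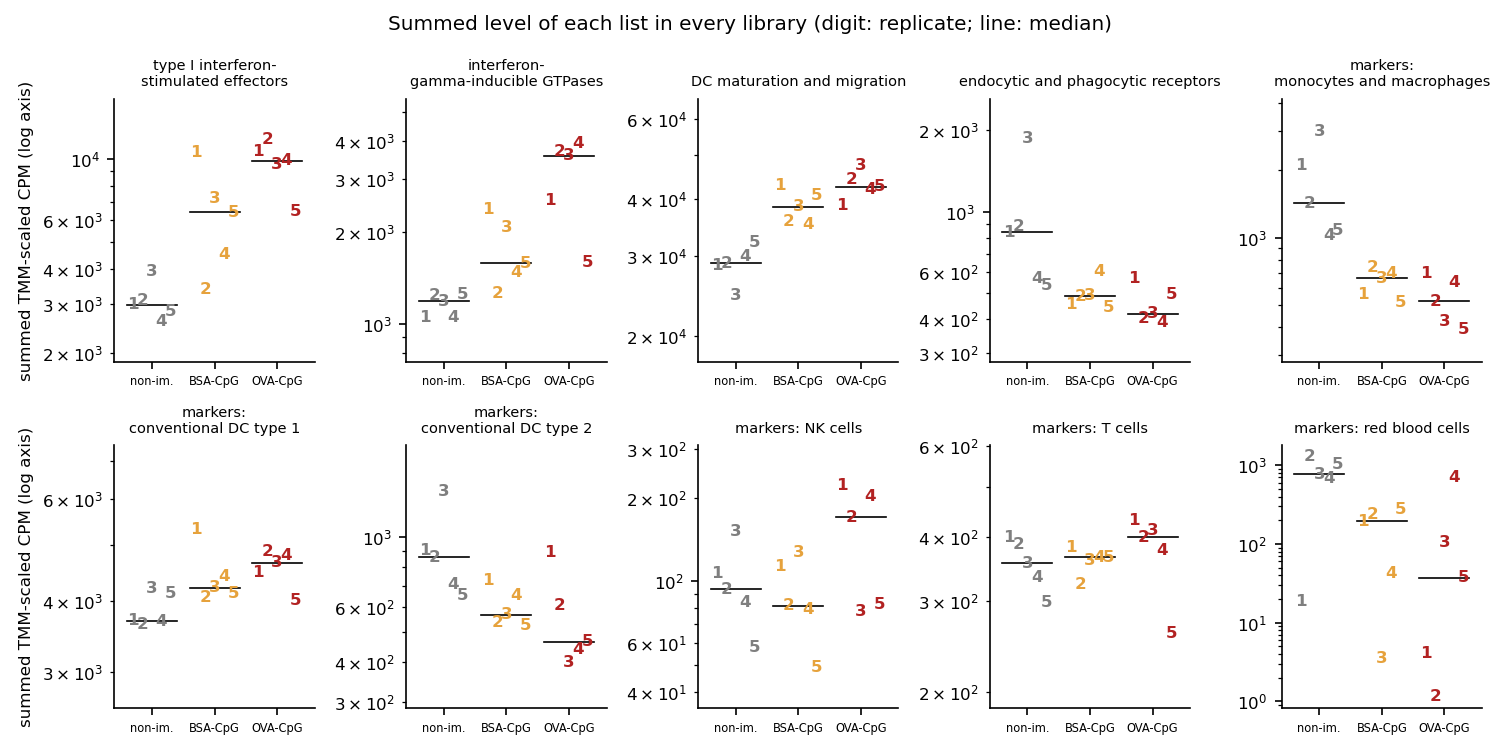
Summed TMM-scaled CPM (log axes) of 10 lists in each library, drawn as its replicate number, for the non-immunized, BSA-CpG and OVA-CpG groups, with a line at the median. Sums of type I effectors, GTPases, maturation genes and monocyte markers do not overlap between the OVA and non-immunized groups, whereas those of both conventional DC subsets, NK, T and red blood cells and of endocytic receptors do.

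Markers of other cells that a sort could hold were counted in each library. Of 20 T cell markers 6 passed the filter and none was called, and their sums were 298 to 399 CPM in the controls and 260.1 to 429 CPM after OVA. Of the B cell, neutrophil and stromal markers 1 each passed the filter and none was called, with sums of 38.4 to 75.9, 7.39 to 124 and 9.86 to 33.0 CPM in the controls and 19.7 to 139, 6.40 to 124 and 9.84 to 18.2 CPM in the OVA libraries. Of 12 NK cell markers 5 passed the filter and 3 of these were called higher. All 12 summed to 57.9 to 151 CPM in the controls and 77.7 to 220.4 CPM after OVA. Gzmb, a granule protease of cytotoxic cells, had 1 count over the controls and stood at 33.6, 9.12, 11.3, 35.4 and 1.41 CPM after OVA (122 counts, adjusted p = 0.00076). It passed the filter through the particle groups alone, so only a rise could be called. After scaling to the TMM library totals of the groups the ratio of its summed counts was 109. The exact 95% interval of 19.1 to 4320.0 covers counting error only and takes each count as an independent molecule. Ncr1 and Eomes, which define NK cells, had 5 and 2 counts over the controls and 5 and 4 over the OVA libraries. Gzma and Klrk1 rose by 2.98 ± 1.01 and 0.51 ± 0.17 (adjusted p = 0.0491 and 0.0444), and both calls were lost with DESeq2, when only the compared libraries were fitted and without non-immunized replicate 1, 2, 4 or 5 or OVA replicate 1, 2 or 4. In these settings 1 member was called, or 0 with only the compared libraries. The part of NK or T cells in the values of Ifng and the granzymes was not tested. Globin genes and other genes of red blood cells summed to 18.8 to 1275 CPM in the controls and 1.14 to 692 CPM after OVA, none called, while 4 of 4 were lower without OVA replicate 4 and 2 without non-immunized replicate 1.

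Particles with BSA in place of OVA were given in a parallel group. Against the same controls 337 genes (3.68%) were higher and 162 (1.77%) lower after BSA. No gene was called between OVA and BSA (0.0% of 9159), where the smallest adjusted p was 0.528, 561 genes had an unadjusted p under 0.05 and DESeq2 also called 0, while the authors' deposited table has 6, all higher after OVA. Isg15 stood at 1897, 189, 935, 399 and 613 CPM in BSA replicates 1 to 5, a log2 change against the controls of 3.43 ± 0.45 (adjusted p = 0.00057), and OVA over BSA was 0.65 ± 0.39. Replicate 1 was the highest of the BSA libraries and replicate 2 the lowest.

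Ccr7 changed by 0.87 ± 0.19 after BSA (adjusted p = 0.00973) and by 1.29 ± 0.19 after OVA, and Lyz2 by -2.46 ± 0.35 (adjusted p = 0.00057) and -3.31 ± 0.36. Cd274 had a log2 change of 0.33 ± 0.20 after BSA (adjusted p = 0.36) and 1.12 ± 0.20 after OVA, and OVA over BSA was 0.79 ± 0.19 (adjusted p = 0.53). Of the type I effectors 32 of 45 were higher after BSA with a median of 1.45, against 41 and 1.97 after OVA. Of the GTPases 8 were higher with a median of 1.20, against 12 and 2.23. Monocyte and macrophage markers were lower in 9 of 11 after BSA and in 9 after OVA. The count of calls after BSA fell to 187 with a term for Y-linked transcripts, which no BSA library held over 20 CPM, while that after OVA was 1351. Leaving out 1 library at a time gave 205 to 494 calls after BSA, the fewest without BSA replicate 1, and 994 to 1415 after OVA.

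In a separate time course with 2 libraries per group and its own non-immunized DC, 962 of 9428 genes (10.2%) were higher and 370 (3.92%) lower at 24 h after OVA particles, and 901 (9.56%) were higher and 381 (4.04%) lower at 12 h. Leaving out 1 library at a time gave 641 to 1054 calls at 24 h and 529 to 831 at 12 h, where the single sample left is assumed to vary like the other groups. Of 8324 genes tested in both experiments, 373 were called higher at 20 h and at 24 h, which is 45.0% of the 829 at 20 h and 41.3% of the 903 at 24 h. Called lower at both were 84, or 16.6% of 507 and 30.2% of 278. At 12 h 295 genes higher (35.6% and 39.4%) and 56 lower (11.0% and 19.4%) were shared with 20 h. Some genes were called in opposite directions. Lower at 20 h and higher in the time course were 31 genes at 12 h and 14 at 24 h, and the reverse held for 13 and 3. The 2 time points share controls, and differences between the experiments were not tested.

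Isg15 was higher in each of the 3 comparisons, by 4.31 ± 0.28 at 12 h and 3.54 ± 0.27 at 24 h of the time course (adjusted p = 1.1e-07 and 4.8e-07). Irf7 was higher by 2.98 ± 0.23 and 2.35 ± 0.23 (adjusted p = 3.6e-07 and 2.2e-06). Ccr7 stood at 314 and 255 CPM in the controls of the time course, 306 and 309.5 CPM at 12 h and 1946 and 1318 CPM at 24 h. It had a log2 change of 0.11 ± 0.21 at 12 h (adjusted p = 0.79) and of 2.52 ± 0.22 at 24 h (adjusted p = 1.1e-06), where 20 h gave 1.29 ± 0.19. Lyz2 stood at 576 and 640.5 CPM in the controls, 610.2 and 486 CPM at 12 h and 81.9 and 106 CPM at 24 h. It had a log2 change of -0.15 ± 0.30 at 12 h (adjusted p = 0.81) and of -2.69 ± 0.35 at 24 h (adjusted p = 4e-05). Both genes were thus called at 20 h and 24 h and not at 12 h. Cd86 was higher in the time course at both times, by 2.08 ± 0.40 and 2.86 ± 0.38 (adjusted p = 0.00199 and 6.4e-05), and was not called at 20 h. The levels of its controls were 16.2 and 7.98 CPM in the time course and 59.2 to 113 CPM at 20 h, from tables normalized separately.

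Of the lists, type I effectors were called higher in 45 of 45 tested members at 12 h and 43 of 45 at 24 h, with medians of 2.76 and 2.17. DC maturation and migration genes were higher in 11 and 24 of 25, with medians of 0.72 and 2.83, beside 0.48 at 20 h. Monocyte and macrophage markers were higher in 6 of 13 at 12 h (median 1.21) and lower in 5 at 24 h (median -0.67). Neutrophil markers, of which 1 was tested at 20 h, were higher in 8 and 6 cases in the time course. The members tested differ between the experiments, and so do the controls. T cell markers summed to 8438 to 8668 CPM in the time course controls and 298 to 399 CPM in those of 20 h. For markers of all conventional DC the sums were 235 to 254 and 1562 to 1916 CPM, and for maturation genes 2434 to 2949 and 24538 to 32057 CPM. Of 19 T cell markers tested in the time course, 12 were lower at each time. The part of the controls in the differences between times was not tested.

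**Figure D5:**
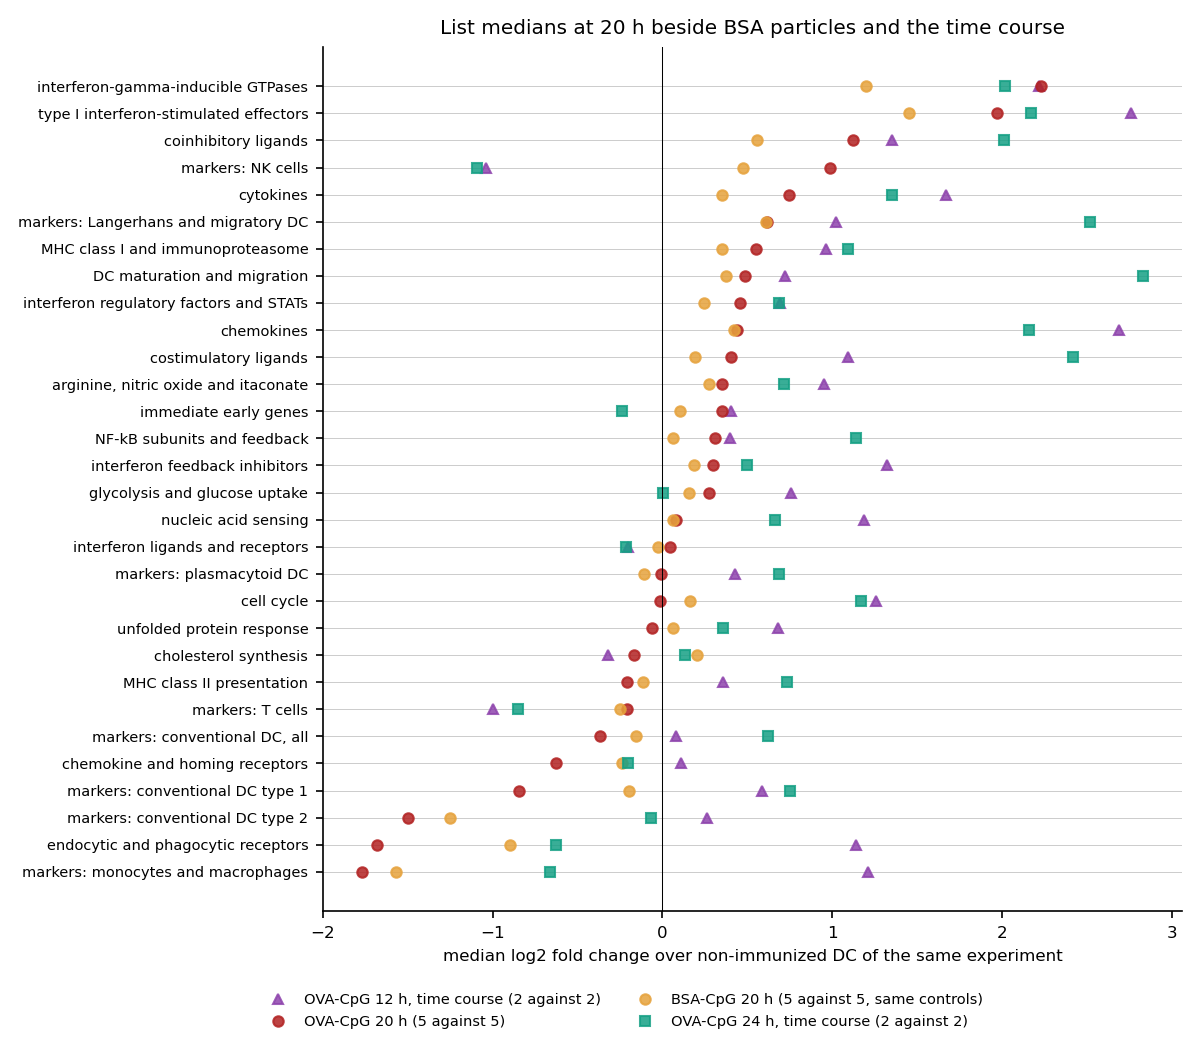
Median log2 fold change over non-immunized DC (x axis) of lists with at least 5 tested members, for OVA-CpG at 20 h (red circles), BSA-CpG at 20 h (orange circles, same controls) and OVA-CpG at 12 h (triangles) and 24 h (squares) of the time course, which has its own controls. GTPases and type I effectors lie to the right in each comparison, and monocyte markers lie left at 20 h (-1.77) and right at 12 h (1.21).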

How the data were processed

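RNA with poly(A) tails was sequenced from sorted lymph node DC. Reads were handled with bcl2fastq, HISAT 0.1.6 and HOMER on mouse build mm9, per the submitters' processing notes, and the deposited tables hold raw counts in exons per gene, with log2 fold changes and p-values of the authors' comparisons beside them. The time course file is marked UMI (unique molecular identifiers), per the labels, and whether the 20 h counts are of molecules or of reads, and whether strand was used, is not given in the sources used here. Of the 20 h table, 2 libraries (4 columns) that match no label were not used.

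All 15 libraries of the 20 h experiment were fitted together with edgeR 4.0.16 (quasi-likelihood test, TMM scaling, filterByExpr by group, R 4.3.3), the time course likewise on its own, and p-values were adjusted by Benjamini-Hochberg. SE is the size of the log2 change divided by the square root of F. The script was tested on simulated counts. Alternatives were DESeq2 1.42.0, its size factors, other filters, the compared libraries alone, a replicate block, a Y-linked term, leaving out libraries, and thinning. Total counts of 367209 to 2052904 make low genes imprecise, and intervals cover counting error only. A gene near the floor in a group passed the filter through the others, so it could be called in a single direction only.

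The members and lists were chosen with earlier results of these data known. Named genes are the markers and 8 genes of DC activation, the 10 largest rises and 10 largest falls among called genes that averaged 10 CPM or more, with no overlap and a clear gene model, and up to 4 called members per list by smallest p. Other genes named were chosen after their values were seen, and some results are not reported here.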

Additional observations from a re-analysis of the deposited data

Results flagged for a closer look

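In 30 of 266 groups of 5 libraries, taken over the named genes and the summed lists, the highest or lowest library stood apart from the other 4 by Dixon's criterion. For independent values of normal spread the criterion marks about 1 in 20 groups. The CPM were not checked for such a spread and the genes share libraries, so this rate is no yardstick for the 30. Of the 30, 18 were high values of non-immunized replicate 3, the library with the smallest total. Among genes of the interferon response these were, in CPM, Rtp4 at 38.5, Socs1 at 93.5, Irgm1 at 104 and Cxcl10 at 154. Among genes of lectins, myeloid cells and DC they were Cd209a at 327, Clec10a at 96.3, Klf4 at 93.5, Itgax at 275, Cd24a at 66.0 and Csf1r at 344. The others were Apod at 5.501, H2-DMb1 at 550.1, Ppt1 at 536 and Gzma at 35.8 CPM. In 4 lists the highest control sum was that of this library, with 2729 CPM for chemokine and homing receptors, 1868 CPM for endocytic and phagocytic receptors, 3485 CPM for immediate early genes and 2360.0 CPM for unfolded protein response. In the other controls, replicate 2 stood apart with Lgals9 at 28.4 CPM and replicate 5 with Ifng at 4.31 and Gzmb at 0.616 CPM. The value of Gzmb is 1 count against 0 in the other controls, and Apod had 7 counts over all 5.

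Among the OVA libraries replicate 5 was low, with Oasl1 at 75.2, Ddx58 at 35.1 and Irgm1 at 132 CPM. Replicate 1 was high in Cd209a at 13.9 and Mgl2 at 13.9 CPM and in the summed cell cycle genes at 425 CPM. Replicate 3 was high in Socs1 at 256 CPM, and replicate 4 in Ifng at 177 CPM and in summed red blood cell genes at 692 CPM.

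Of the named genes, 3 were called in opposite directions at 20 h and at 12 h of the time course with no overlap between the groups in either, and the difference between the experiments was not tested. Clec4a2, an inhibitory lectin, and Stmn1, a tubulin regulator of dividing cells, were lower at 20 h and higher at 12 h, with log2 changes of 1.29 and 1.26 at 12 h. Dusp2, a phosphatase of MAP kinases, was higher at 20 h and had a log2 change of -0.61 at 12 h. Ccl9 and Mki67 were also called lower at 20 h and higher at 12 h (log2 changes of 1.93 and 1.65), with overlapping groups at 20 h. Ccl9 was called higher at 24 h too.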

How the results depend on the processing

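The count of 1431 genes called between OVA and non-immunized DC at 20 h fell to 311 when counts were thinned to the smallest total, where 74.3% of calls were higher against 61.4% before. Fewer reads per library are part of that setting. Leaving out 1 library at a time gave 994 to 1415 calls, and DESeq2, its size factors, other filters, the compared libraries alone and the Y-linked term gave 1191 to 1493. Same-numbered samples of the 2 groups had deviations that correlated at -0.093 to 0.114. No known pairs were there to compare with, so this cannot exclude that the numbers mark a shared day or litter. The labels do not say. A fit with a replicate block gave 1270 calls, 0 between OVA and BSA, 399 for BSA, 1358 at 24 h and 1326 at 12 h. Between OVA and BSA 2 genes were called with no filter, and 4 without OVA replicate 5, with 0 to 4 over the left-out libraries. For BSA the count of 499 became 187 with the Y-linked term, 71 after thinning and 205 to 494 over left-out libraries, and it was 224 and 295 without the controls numbered 1 and 2, and 205, 306 and 276 without BSA replicates 1, 3 and 5. In the time course DESeq2 called 887 genes at 24 h (83.2% higher against 72.2%) and 794 at 12 h, and left-out libraries gave 641 to 1054 and 529 to 831. Except for the construction of the thinned counts and the smaller groups, the cause of these shifts was not tested. Of 99 named genes called, 97 kept the call with DESeq2, and the calls of Klrk1, Gzma, Edem1, Pkm, Cd48 and Gpr183 were among those most often lost. After thinning 53 of 79 with a value kept it.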

Other observations

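Of the genes of glycolysis and glucose uptake 4 of 14 tested members rose and 0 fell, with a median log2 change of 0.27. Slc16a3, a lactate exporter, rose by 0.77 ± 0.24 and Hk1, a hexokinase, by 0.63 ± 0.18 (adjusted p = 0.0322 and 0.0184, edgeR's quasi-likelihood test). These calls were lost in 7 and 3 of 19 alternatives, and 1 member of the list was higher without non-immunized replicate 1 or 2 or OVA replicate 1 or 5. Ass1, which makes arginine precursors for nitric oxide synthesis, stood at 88.5, 97.2, 93.5, 97.5 and 89.4 CPM in the controls and 242, 222, 230.3, 173 and 197 CPM after OVA. Its groups did not overlap (log2 1.19 ± 0.23, adjusted p = 0.00123), and it was 1 of 6 tested genes of arginine, nitric oxide and itaconate.

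Of the cell cycle genes 2 of 16 fell and 0 rose, where 6.04% and 9.59% of all genes did. The list had a median log2 change of -0.02 and summed to 315.6 to 365.8 CPM in the controls and 289.5 to 425.2 CPM after OVA, with overlap. Those that fell were Stmn1 (log2 -0.86 ± 0.20) and Mki67, the Ki-67 antigen (log2 -1.07 ± 0.28, adjusted p = 0.00617 and 0.0126). Of the immediate early genes 6 of 19 rose and 2 fell. The count that rose ranged from 2 after thinning to 9 without replicate 3 of both groups, and fewer fell in 13 alternatives, among them those without non-immunized replicate 1, 2, 3 or 4 or OVA replicate 2, 3, 4 or 5. Zfp36, which destabilizes cytokine mRNAs, stood at 253, 233, 316, 280.2 and 332 CPM in the controls and 564, 554, 1039, 619 and 408 CPM after OVA, with no overlap (log2 1.18 ± 0.22, adjusted p = 0.00083). Klf4, a factor of monocytes and type 2 DC, fell (log2 -1.98 ± 0.48, adjusted p = 0.00685), and non-immunized replicate 3 had its highest value. Edem1, of the degradation of misfolded proteins, was the 1 gene of 15 in the unfolded protein response that was called (log2 0.43 ± 0.14, adjusted p = 0.0408), and the call was lost in most alternatives.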
